A study of Mus musculus with 4 samples.

Results

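The genes described here are 37 factors of homologous recombination, interstrand crosslink repair, mismatch repair and the checkpoint that is signalled from damaged or stalled DNA. They were chosen as the gene probes of the array whose listed gene name is 1 of these 37 symbols, out of 27376 gene names on the array. The rule itself used no measured value, but the list was drawn up with earlier results of these data known. All 37 had a probe, 73 probes in all, with 1 probe for 13 genes, 2 for 15, 3 for 6 and 4 for 3. Homologous recombination repairs broken or collapsed DNA by cutting back the ends, pairing the freed single strand with a matching duplex and copying from the sister chromatid. The Fanconi proteins unhook crosslinks between the strands and hand the break to recombination, and mismatch repair removes copying errors behind the replication fork. These factors are mostly used in S and G2 phase, and in the colon the dividing cells lie in the lower part of the crypt.

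The values come from 4 dual-color arrays that cover the mouse genome. First, RNA of the colon (labelled distal colon) of Rspo3 KO mice, Myh11CreErt2/Rspo3 fl/fl, was set against that of Rspo3+/+ littermates that carry the same Myh11CreErt2. The Cre acts in Myh11-expressing cells, the myofibroblasts and muscle of the gut wall, so Rspo3, a Wnt-enhancing ligand of the stroma, is deleted there and no repair gene is. The mice were male C57BL/6, 6 to 8 weeks old, had received 4 mg tamoxifen per 25 g bodyweight in 1 dose or on consecutive days, and were studied 2 weeks later, with 1 mouse per channel and 2 pairs. In pair 1 the KO mouse was labelled with Cy5 and in pair 2 with Cy3. In the second experiment, epithelial cells of Axin2CreErt2/Rosa26-tdTomato mice on C57BL/6 were sorted 24 h after tamoxifen into tdTomato positive cells, called Axin2+, and tdTomato negative cells, called Axin2-. These mice were also male, 6 to 8 weeks old and given tamoxifen at 4 mg per 25 g bodyweight. RNA pooled from 3 mice was hybridised on 2 arrays with the dyes exchanged, which makes both arrays 1 replicate with no test. The 2 experiments share no samples.

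Between 53.1% and 60.3% of gene spots per channel were well above background. The probes of Rspo3 itself did not separate the genotypes. The first had log2 ratios of KO over control of 0.10 and 0.17 and was well above background only in the mice of pair 2, and the second had -0.11 and -0.046 and was at background in all 4 mice. The position of the deleted exons relative to them is not given in the sources used here. The genotypes are therefore those of the labels. Lgr5, the crypt base receptor for R-spondins, was well above background on probe A_51_P218091 in both control mice and in neither KO mouse. That probe had log2 ratios of -1.275 and -2.61. The other Lgr5 probe was at background in all 4 mice, with -0.16 and 0.073. In the sorted cells, Axin2 had log2 ratios of 1.35 and 1.30 and the proliferation gene Mki67 of 1.96 and 2.12 in Axin2+ over Axin2- cells. Mki67 had ratios of -0.97 and 0.27 in the KO pairs.

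Sequences are shown for the probes on which the KO result turns and for promoters with a shared motif. The first 30 bases of the 60-base probes of Slx1b follow, since these probes gave different values. The first probe, A_51_P335104, is listed at chr7:133833094-133833153 of mm9 and the second, A_51_P113773, at chr7:133835102-133835161, both on the minus strand. Whether either lies in an exon shared by all transcripts is not given in the array files.
Slx1b probe A_51_P335104: ggggagtcacagaaaaaggcgctcacagaa
Slx1b probe A_51_P113773: gacagacttgctggagacttgatcctaagt

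The stretch of 250 bases before the start was searched in the RefSeq promoters of GRCm38.p6 for an E2F-like motif, as TTTCCCGC, TTTGGCGC, TTTCGCGC or TTTGCCGC on either strand, because E2F factors drive genes of DNA replication. Of the 37 genes, 28 were in the promoter table, and 4 of them, Bard1, Brca2, Fancg and Topbp1, held 1 of these motifs, against 1.86% of all 32851 promoter stretches. The motif was thus in 2 of the 7 listed promoters of genes above 1.5-fold in Axin2+ cells (Brca2 and Topbp1) and in 2 of the other 21. CCAAT, searched on both strands, was in 14 of the 28 genes and in 33.8% of all promoter stretches. The members were counted by gene, 3 of them with 2 stretches, while the shares over all are of stretches. The GC content had a median of 60.4% over the members' stretches and 52.4% over all. CG dinucleotides, which each of the 4 E2F-like motifs holds, had a median of 18 in the members' stretches and 6 in all. The part of base composition in the motif counts was not tested. Brca2 and Topbp1, which were higher in Axin2+ cells, and Fancg, which was not, are shown 5′ to 3′ on the strand of the gene with the motif in capitals. The stretches lie at chr5:150522371-150522620 on the plus strand for Brca2, chr9:103305077-103305326 on the plus strand for Topbp1 and chr4:43010302-43010551 on the minus strand for Fancg. In Brca2 and Topbp1 the motif reads on the opposite strand, so that the capitals show its complement. A match of letters is not evidence that a factor binds there.
Brca2: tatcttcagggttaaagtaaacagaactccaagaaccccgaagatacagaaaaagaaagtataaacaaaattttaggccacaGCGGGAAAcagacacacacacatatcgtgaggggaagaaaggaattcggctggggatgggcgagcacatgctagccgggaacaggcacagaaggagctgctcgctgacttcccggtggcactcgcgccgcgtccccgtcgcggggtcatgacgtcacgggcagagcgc
Topbp1: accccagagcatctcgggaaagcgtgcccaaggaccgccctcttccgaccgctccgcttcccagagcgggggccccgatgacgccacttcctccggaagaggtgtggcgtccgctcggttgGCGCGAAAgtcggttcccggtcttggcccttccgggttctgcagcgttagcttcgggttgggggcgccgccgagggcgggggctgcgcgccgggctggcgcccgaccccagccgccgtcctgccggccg
Fancg: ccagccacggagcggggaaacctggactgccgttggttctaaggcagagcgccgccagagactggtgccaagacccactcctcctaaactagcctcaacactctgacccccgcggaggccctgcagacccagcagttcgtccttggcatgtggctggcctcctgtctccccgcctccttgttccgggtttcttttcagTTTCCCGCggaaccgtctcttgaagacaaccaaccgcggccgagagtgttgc

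In the colon of Rspo3 KO mice the repair genes lay mostly below the controls, by small amounts that differed between the pairs, and Slx1b fell strongly on 1 of its probes. A level was measured for 36 of the 37 genes, all but Bard1, the partner of BRCA1, whose probe stayed at background in all 4 mice. In limma's test on the 2 pairs, with Benjamini-Hochberg adjustment over 15397 genes, Slx1b alone of the 36 passed an adjusted p of 0.05, and 0.26% of all genes did, 0.117% in the lower direction. Past 1.5-fold with the same sign in both pairs, 4 of 36 lay lower, Slx1b, Fancg, Rad54b and Brca2, and none higher, against 2.47% and 1.85% of all genes. These 4 were also the only members with an unadjusted p under 0.05, which 4.66% of all genes had, 2.71% with a lower value.

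Lower values in both pairs were seen in 18 of the 36, against 24% of all genes, and higher values in both in none, against 20.3%. The other 18 had opposite signs, against 55.8% of all genes. Of the 36, 13 were lower in pair 1 and higher in pair 2, against 26.4% of all genes. The median log2 ratio was -0.22 over the 36 genes, -0.43 in pair 1 and -0.13 in pair 2, beside -0.012 over all genes measured. In pair 1, 31 of 36 lay below 0, against 50.3% of all genes, and in pair 2, 23 of 36, against 53.3%. Pair and dye orientation cannot be told apart. The order of the pairs depended on the processing. With normexp fitted to all spots the medians were -0.062 in pair 1 and -0.13 in pair 2. With median centring in place of loess they were 0.12 and -0.57, so that the sign of pair 1 turned, and 12 of 36 were lower in both pairs, against 9.41% of all genes under that centring. With the dye effect of each probe, as measured in the Axin2 dye exchange, taken out, the medians were -0.35 and -0.18. Over the 36 genes the ratios of pair 1 and pair 2 had a rank correlation of -0.11, and over all 15397 genes of -0.12, so that the order of the genes in 1 pair did not carry over to the other.

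**Figure D1:**
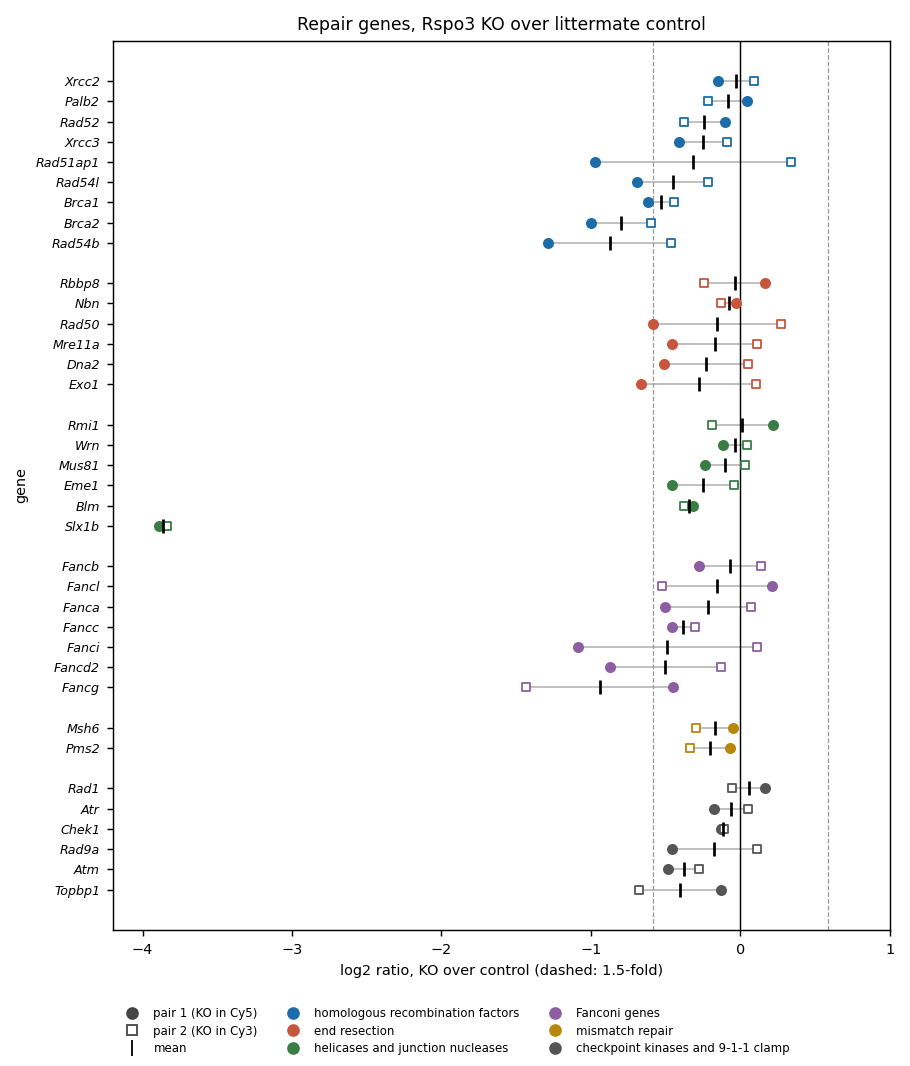
Log2 ratio of Rspo3 KO over control (x axis) for the 36 measured repair genes, grouped by role, with filled circles for pair 1, open squares for pair 2 and black ticks for their mean. Slx1b lies near -3.9 in both pairs, while many others lie further left in pair 1 than in pair 2.

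Slx1b encodes the nuclease subunit that, bound to its scaffold SLX4, cuts Holliday junctions and other branched DNA. With its brighter probe, A_51_P335104, the normalised log2 intensity was 7.10 and 6.84 in the KO mice and 10.99 and 10.67 in their controls. Both KO mice thus lay far below both controls, and each channel was well above background. The log2 ratio was -3.89 in pair 1 and -3.84 in pair 2, a mean of -3.86 ± 0.040 (SD, n = 2 pairs), which is 14.6-fold lower with a 95% interval of 10.1 to 21.0, at limma's adjusted p of 0.00139.

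The second Slx1b probe, A_51_P113773, gave a much smaller difference. Its intensity was 7.89 and 7.96 in the KO mice and 8.62 and 8.77 in the controls, again with no overlap and above background throughout. Its log2 ratios were -0.73 and -0.81. The 2 probes hence had the same sign and differed by 3.10 on the log2 scale, the widest gap between probes of any member with several measured probes in this experiment, where the median gap was 0.19 over 15 genes. Averaged over both probes, Slx1b had a log2 ratio of -2.32 and limma's adjusted p was 0.0556, short of the threshold. In the sorted cells neither probe stood apart: the first had 9.38 and 9.68 in Axin2+ and 9.35 and 9.38 in Axin2- cells, and the second 8.61 and 8.50 against 8.57 and 8.70.

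Within 100 kb of the first Slx1b probe, 16 other probes of 13 genes were measured, with mean log2 ratios from -0.59 to 2.16 and a median of -0.076. Of the 16, 6 lay lower in both pairs, beside 24% of all genes. Gdpd3, a lysophospholipase D gene in this stretch, rose by log2 ratios of 2.41 and 1.91 (limma's adjusted p = 0.0184). It was singled out after its values had been seen.

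**Figure D2:**
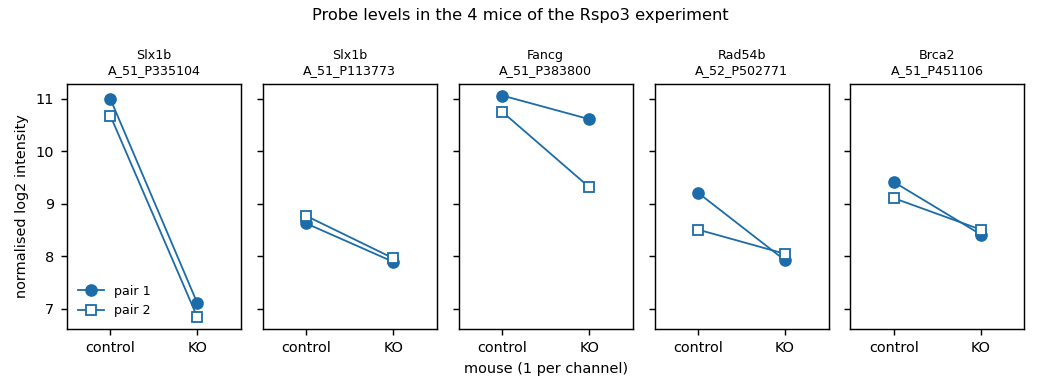
Normalised log2 intensity (y axis) in the control and KO mouse of each pair, joined by a line, for both Slx1b probes and for the Fancg, Rad54b and Brca2 probes used. The first Slx1b probe drops from about 11 to 7, and the KO mouse lies below its control in every panel.

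Among the homologous recombination factors, 6 of 9 measured genes were lower in both pairs and none was higher in both. Of all genes, 24% were lower and 20.3% higher in both. The median of the 9 was -0.62 in pair 1 and -0.22 in pair 2. Brca2, a breast cancer susceptibility gene needed for homologous recombination, had intensities of 8.41 and 8.51 in the KO mice and 9.41 and 9.11 in the controls. The KO mice lay below both controls. Its mean log2 ratio was -0.80 ± 0.28 (SD, n = 2 pairs; ratios -0.999 and -0.60), with an unadjusted p of 0.0104 and an adjusted p of 0.599 in limma's test. Rad54b, which encodes a DNA-dependent motor protein of recombination, had 7.92 and 8.05 in the KO mice and 9.21 and 8.51 in the controls. Its log2 ratios were -1.29 and -0.46 (limma's adjusted p = 0.658), and the gap between pairs came mainly from the control mouse of pair 1.

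Brca1, the ubiquitin ligase that directs broken ends to recombination, had log2 ratios of -0.62 and -0.45 (limma's unadjusted p = 0.0505), so that both pairs lay on the same side by like amounts. Rad54l, the other RAD54 motor, had -0.69 and -0.22. Xrcc3, a recombination gene first found by X-ray sensitivity, had -0.41 and -0.092. Rad52, an annealing factor, had -0.11 and -0.38, and 0.069 and -0.18 on its other measured probe. For the remaining genes of this role the pairs disagreed in sign. Rad51ap1, which promotes strand pairing, had -0.97 and 0.34, the widest split of all members between the pairs. Palb2, the bridge between BRCA1 and BRCA2, had 0.046 and -0.21, and Xrcc2, which also acts in recombination, -0.15 and 0.089. The other measured Xrcc2 probe was lower in both pairs, at -0.038 and -0.12.

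On their brightest probes, end resection genes showed no joint shift in the KO mice. In pair 1, 5 of 6 lay below 0 with a median of -0.48, and in pair 2, 4 of 6 lay above it with a median of 0.077. Of all genes, 50.3% lay below 0 in pair 1 and 53.3% in pair 2. The MRE11 complex, which starts resection, had log2 ratios of -0.46 and 0.11 for Mre11a, -0.59 and 0.28 for Rad50 and -0.026 and -0.13 for Nbn. The long-range nucleases Exo1 and Dna2 had -0.66 and 0.10, and -0.51 and 0.050. The signs for Mre11a and Dna2 depended on the probe. Another measured Mre11a probe was lower in both pairs, at -0.12 and -0.55, and the remaining one had -0.074 and 0.14. The other measured Dna2 probe was lower in both, at -0.52 and -0.14. Rbbp8, which encodes the MRE11 cofactor CtIP, ran the other way, with 0.17 and -0.24.

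Of the helicases and junction nucleases other than Slx1b, Blm had log2 ratios of -0.31 and -0.38, alike in both pairs. BLM unwinds recombination intermediates together with RMI1, and Rmi1 had 0.22 and -0.19. Eme1 and Mus81, which encode the 2 subunits of another junction nuclease, had -0.46 and -0.046, and -0.23 and 0.034. Wrn, the Werner helicase, had -0.12 and 0.042.

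In the Fanconi group, 3 of 7 genes were lower in both pairs, against 24% of all genes, and 7 genes are too few to set these apart. Fancg, a subunit of the Fanconi core complex, had intensities of 10.61 and 9.32 in the KO mice and 11.06 and 10.75 in the controls. Both KO mice were lower, with log2 ratios of -0.45 and -1.43 (mean -0.94 ± 0.69, SD, n = 2 pairs; limma's unadjusted p = 0.01145, adjusted p = 0.623). Its other 2 measured probes had mean ratios of -0.059 and 0.0047, so this value rests on the brightest probe. Fancc, also of the core complex, had -0.45 and -0.31.

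Fancd2 and Fanci encode the pair that is ubiquitinated at crosslinks. Fancd2 had log2 ratios of -0.87 and -0.13, and Fanci of -1.09 and 0.11, so that both were much lower in pair 1 only. The Fancd2 value is from a probe that only the earlier of 2 versions of the array annotation names so, and the other measured probe had a mean of -0.18. Fanca and Fancb of the core complex had -0.51 and 0.069, and -0.28 and 0.14. Fancl, its ubiquitin ligase, had 0.21 and -0.53, while its other measured probe was lower in both pairs, at -0.19 and -0.22.

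The mismatch repair genes Msh6, for mismatch recognition, and Pms2, for strand incision, were slightly lower in both pairs, at -0.050 and -0.29, and -0.069 and -0.34. Among checkpoint genes, Topbp1, the activator of ATR, had -0.13 and -0.68. Atm, the kinase activated at breaks, had -0.48 and -0.28, while its other measured probe had 0.065 and 0.027, of the opposite sign. Chek1, the effector kinase of ATR, had -0.13 and -0.11, and -0.19 and 0.013 on its other measured probe. Atr itself had -0.17 and 0.050, with -0.63 and 0.10 on its other measured probe. The clamp subunits Rad9a and Rad1 had -0.46 and 0.11, and 0.16 and -0.052. None of these 8 genes passed limma's test, which 0.26% of all genes did.

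Markers of other cell types were read in the same mice, beside the 24% of all genes lower and 20.3% higher in both pairs. B cell markers were lower in both pairs in 8 of 9 measured (of 12 listed), with mean log2 ratios from -2.63 to -0.088. Of the 9, 4 passed limma's test, against 0.26% of all genes. No marker of the other lists given here passed its adjusted p. Erythroid markers were higher in both pairs in 3 of 3 measured (of 4), from 1.01 to 1.60. Crypt base stem cell markers were lower in both in 8 of 12 (of 14), from -1.95 to 0.26, and T cell markers in 6 of 7 (of 10), from -0.71 to 0.039. Epithelial markers were lower in both in 2 of 7 (of 10), a share near that of all genes, with a median of -0.060. Their part in the values of the repair genes was not tested. In whole colon RNA, fewer cells of a type and less RNA per cell cannot be told apart.

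In Axin2+ cells the repair genes were almost all higher than in Axin2- cells. A level was measured for 36 of 37 genes, all but Palb2, and 10 of 36 were past 1.5-fold higher on both arrays, where 7.87% of all genes measured were. None of the 36 was past 1.5-fold lower, where 6.91% of all genes were, and 2, Mus81 and Fancg, were lower on both arrays, where 41.7% of all genes were. Higher values on both arrays were seen in 32 of 36, against 41.1% of all genes, and the median log2 ratio was 0.35 (0.39 and 0.38 on the arrays), beside -0.005 over all genes. The 10 genes were Atr, Brca2, Msh6, Exo1, Rad54b, Topbp1, Atm, Brca1, Fanci and Fancd2. Of these, 5 had 1 measured probe. Of the 5 with several, only Atr was past 1.5-fold on a probe other than the brightest. As both arrays hold the same pair of pools, their gap is technical error, and no p-value can be given.

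**Figure D3:**
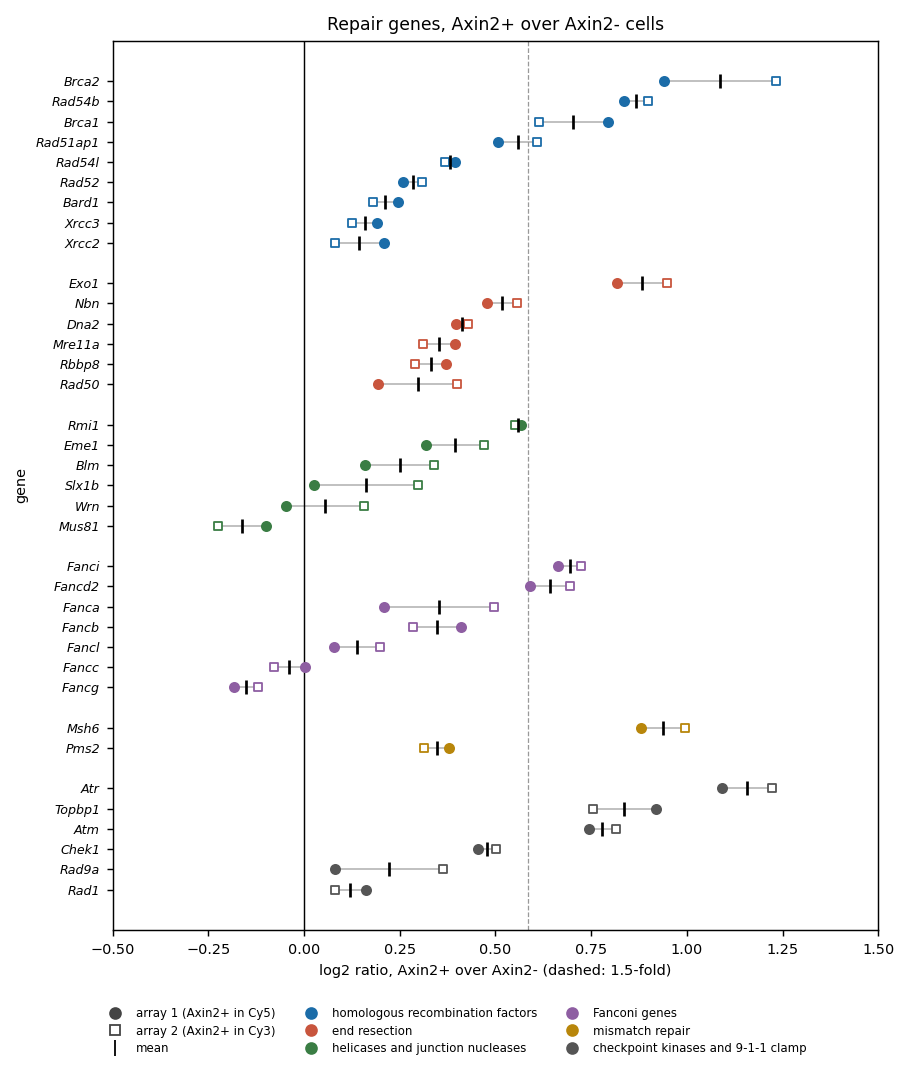
Log2 ratio of Axin2+ over Axin2- cells (x axis) for the 36 measured repair genes by role, with filled circles for the array with Axin2+ in Cy5, open squares for the exchanged dyes and black ticks for the mean. Of the genes, 10 lie beyond the dashed line at 1.5-fold and Mus81 and Fancg lie below 0 on both arrays.

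Of the 6 checkpoint genes, 3 were past 1.5-fold higher, against 7.87% of all genes. The median log2 ratio of the 6 was 0.63. Atr, the kinase activated by single-stranded DNA at stalled forks, had intensities of 9.56 and 9.55 in Axin2+ cells and 8.47 and 8.32 in Axin2- cells. Its log2 ratios were 1.09 and 1.22, a 2.23-fold difference, the highest mean of the members. A second probe of Atr had a mean of 1.07, and the remaining, dimmer probe of 0.32. Topbp1, with 9.01 and 8.73 against 8.09 and 7.98, had ratios of 0.92 and 0.75, and Atm of 0.74 and 0.82, with a mean of 0.37 on its other probe. Chek1 had 0.45 and 0.50. The clamp genes Rad9a (0.082 and 0.36) and Rad1 (0.16 and 0.081) were the lowest of this role, so that the kinases and their activator lay above the clamp on every array.

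All 9 measured recombination factors were higher on both arrays, against 41.1% of all genes. Brca2 had 7.97 and 7.91 in Axin2+ cells and 7.03 and 6.67 in Axin2- cells, with log2 ratios of 0.94 and 1.23. Its second measured probe had a mean of only 0.21, the widest gap between probes of a member in this experiment, and that of Rad54b 0.17. With the brightest probe, Rad54b (0.84 and 0.90) and Brca1 (0.79 and 0.61) followed, and Rad51ap1 had 0.51 and 0.61. Rad54l had 0.39 and 0.37 with a probe named so only in the earlier annotation, and 0.15 as a mean with the other. Rad52 had 0.26 and 0.31, Bard1 0.24 and 0.18, Xrcc3 0.19 and 0.13, and Xrcc2 0.21 and 0.080. The differences between the lowest 3 of these were of the size of the gaps between arrays.

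Among resection genes, Exo1 stood apart, with 8.47 and 8.40 in Axin2+ cells against 7.65 and 7.45 and log2 ratios of 0.82 and 0.95. The MRE11 complex was higher by less: Nbn had 0.48 and 0.56, Mre11a 0.39 and 0.31, and Rad50 0.19 and 0.40. Dna2 had 0.40 and 0.43, and Rbbp8 had 0.37 and 0.29. Of these 6 genes, the 5 other than Exo1 spanned 0.30 to 0.52 as means over the arrays.

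None of the junction enzymes was past 1.5-fold, against 7.87% of all genes higher and 6.91% lower. Rmi1 had log2 ratios of 0.57 and 0.55 and Eme1 of 0.32 and 0.47, while its partner Mus81 had -0.099 and -0.22, and a second Mus81 probe a mean of -0.14. Blm had 0.16 and 0.34, and Wrn -0.047 and 0.16. Slx1b, which fell in the KO mice, had 0.025 and 0.30. The 2 subunits of the MUS81 nuclease hence lay on opposite sides of 0 on both arrays.

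In the Fanconi group the ubiquitinated pair was highest, at 0.66 and 0.72 for Fanci and 0.59 and 0.70 for Fancd2. For Fancd2, the probe that both annotations name had a mean of only 0.058 and was not well above background in the Axin2- channels. The core complex genes Fanca (0.21 and 0.50) and Fancb (0.41 and 0.28) were next, and the ligase gene Fancl had 0.079 and 0.20. Fancc lay at 0.0031 and -0.080 and Fancg at -0.18 and -0.12, although another Fancg probe had a mean of 0.24. On the brightest probes all 5 genes of the core complex lay below the pair it modifies. On the Fancd2 probe that both annotations name, Fancd2 lay below Fanca, Fancb and Fancl, so this order depends on the probe.

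Of the mismatch repair genes, Msh6 was past 1.5-fold, with intensities of 10.46 and 10.56 in Axin2+ cells and 9.58 and 9.56 in Axin2- cells. Its log2 ratios were 0.88 and 0.995. Pms2 had 0.38 and 0.31. Intensities of different probes are not comparable as levels of the genes.

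In the same sort, crypt base stem cell markers were higher on both arrays in 11 of 12 measured (of 14 listed) with a median log2 ratio of 1.06. Surface enterocyte markers were lower in 10 of 10 with a median of -2.55. Of all genes, 41.1% were higher and 41.7% lower on both arrays. Erythroid markers were lower on both arrays in 3 of 3 measured. The part of cell composition in the repair gene values was not tested.

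Side by side, 35 genes had a value in both experiments, and 30 of them had a mean below 0 in the KO mice and above 0 in Axin2+ cells, where 30.7% of all 13646 genes did. For Dna2, Mus81 and Rad54l the brightest probe was not the same in both experiments. The genes past 1.5-fold in Axin2+ cells had KO means from -0.87 for Rad54b and -0.80 for Brca2, over -0.53 for Brca1, to -0.17 for Msh6 and -0.062 for Atr. Atr, the highest of the members in Axin2+ cells, thus lay near 0 in the KO mice on its brightest probe, and at a mean of -0.26 on its second. Fancg and Slx1b, the lowest in the KO mice, had means of -0.15 and 0.16 in the sorted cells. Over the 35 genes the rank correlation between the 2 experiments was -0.25, and over 13646 genes -0.19. The members' value was -0.30 with pair 1 and -0.013 with pair 2, and that of all genes -0.058 and -0.19, so that neither held alike in both pairs. Pearson's r over the 35 members was 0.043. The genes share probes and arrays and are not independent.

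**Figure D4:**
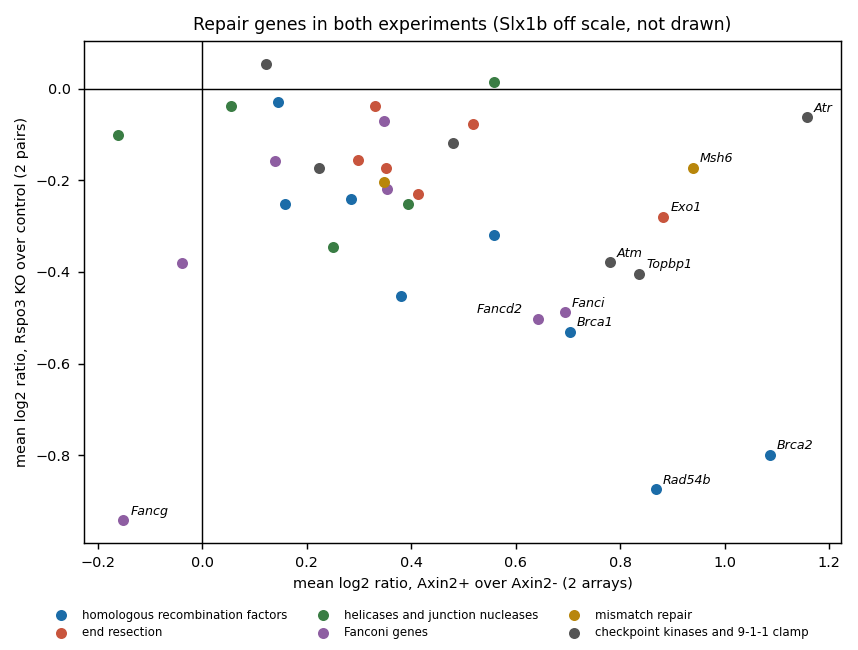
Mean log2 ratio in Axin2+ over Axin2- cells (x axis) against the mean in Rspo3 KO over control mice (y axis), 1 point per repair gene, coloured by role, with Slx1b (0.16 and -3.86) left off the scale. Most points lie in the lower right part, with Brca2 and Rad54b furthest down among the genes high in Axin2+ cells.

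Other genes of these pathways had a median closer to 0 in the KO mice. The members were chosen with earlier results of these data known, and the part of that choice in the gap was not tested. Of 45 further recombination, Fanconi, mismatch and checkpoint genes, 38 were measured there. None passed limma's adjusted p, which 0.26% of all genes did. None was past 1.5-fold, against 2.47% of all genes lower and 1.85% higher. Only 1, the helicase gene Recql with ratios of -0.61 and -0.55, had an unadjusted p under 0.05 in limma's test, against 4.66% of all genes. Recql was singled out after its values had been seen. The median of the 38 was -0.11 (-0.34 and -0.020 in the pairs). Of them, 15 were lower in both pairs and 2 higher in both, against 24% and 20.3% of all genes. In Axin2+ cells 40 were measured, with a median of 0.36. Of the 40, 9 were past 1.5-fold higher and none lower, against 7.87% and 6.91% of all genes. Higher values on both arrays were seen in 33, against 41.1% of all genes. The highest were Usp1, which removes ubiquitin from FANCD2 (1.16 and 0.91), Rif1, a break repair and replication timing factor (0.90 and 0.91), and Tipin, of the fork protection complex (0.89 and 0.87). The lowest of those alike on both arrays were Shfm1, the BRCA2-binding DSS1 (-0.42 and -0.038), Helq, a helicase (-0.15 and -0.011), and Rad51d, a recombination factor (-0.040 and -0.066).

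The pathways used as reference are given beside the shares of all genes. In Axin2+ cells, S phase genes were past 1.5-fold higher in 14 of 20 (median 0.74) and mitosis genes in 17 of 20 (median 0.77). Of the repair members, 10 of 36 were (median 0.35), and of all genes 7.87%. Non-homologous end joining genes, which act in all cell cycle phases, were past 1.5-fold higher in 0 of 10 (median 0.26). Of these 10, 7 were higher on both arrays and 2 lower, against 41.1% and 41.7% of all genes. Excision repair genes were past 1.5-fold higher in 2 of 23 (median -0.0035). In lists of this size, neither count past 1.5-fold can be told from the 7.87% of all genes. In the KO mice, S phase genes had medians of -0.67 and -0.15 in the pairs. Of the 20, 5 were past 1.5-fold lower, against 2.47% of all genes. None of the 20 passed limma's adjusted p, which 0.26% of all genes did. Mitosis genes had medians of -0.62 in pair 1 and 0.37 in pair 2, a wider split than that of the repair genes under the same processing. For the repair genes the order of the pairs depended on the processing, and other processing is not given here for the mitosis genes. Pair and dye orientation cannot be told apart. Excision repair genes had a median of -0.047 and end joining genes of -0.19, beside -0.22 for the repair members.

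**Figure D5:**
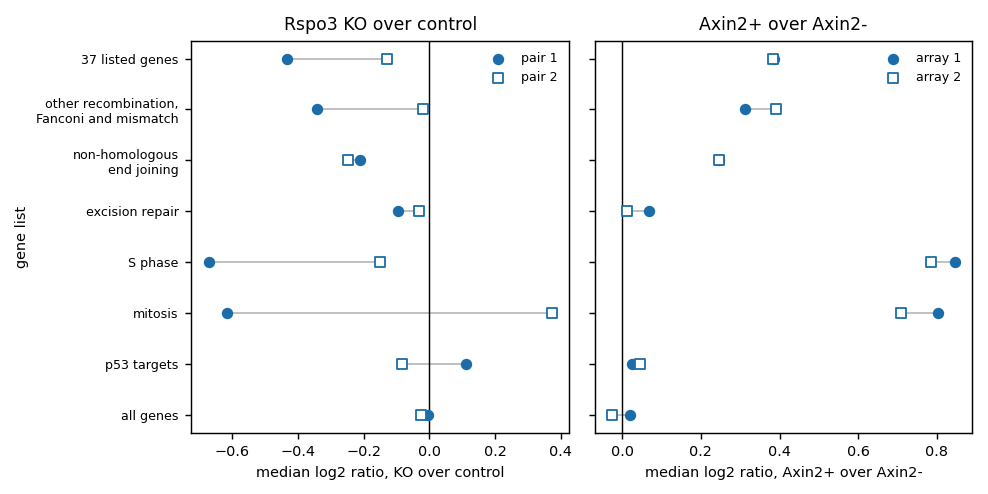
Median log2 ratio (x axis) of each gene list on each array, for Rspo3 KO over control (left) and Axin2+ over Axin2- (right), with filled circles for the first pair or array and open squares for the second. In the KO mice mitosis genes lie at -0.62 and 0.37 and the repair genes at -0.43 and -0.13.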

How the data were processed

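RNA of 2 pairs of mice and of a pair of sorted pools was measured on 4 dual-color Agilent arrays, whose groups were taken from the labels. The authors deposited for each spot the intensity and background intensity of both dyes on a linear scale, from Agilent Feature Extraction 11.5.1.1, and a log10 ratio of Cy5 over Cy3, which the series' table of values repeats. The p-value that the software gave within 1 array was not used. The labels state Trizol extraction of distal colon, the methods RNeasy extraction of colon.

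From the deposited intensities, background was corrected with limma 3.58.1 in R 4.3.3 by normexp (offset 50), a loess curve was taken out of the log2 ratios of every array, and outlier spots were left out, with spots whose background was an outlier (66 and 6 on the KO arrays) kept out of the background fit. Channel intensities were then scaled between the arrays of an experiment by Aquantile. Ratios were turned to KO over control and Axin2+ over Axin2-. For each gene the brightest probe was used, out of those well above background on both arrays in 1 channel or more. Names are those of the earlier array design, listed in the KO files. The later design in the Axin2 files names 4519 of 41174 probes differently and gives 65 member probes in place of 73, of which 9 are lost and 1 is added. Probe positions are those of mm9 in the files.

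The KO pairs were tested with limma against 0, with Benjamini-Hochberg adjustment. The p-values rest on 1 mouse per channel and 2 pairs, and precision is limited by the number of arrays. In 5 simulations of 15397 genes with 200 changed by 2 to 3 on the log2 scale, 98.5% to 100% were recovered and 6.13% to 14.2% of calls were false. Every member but Slx1b had a smaller change in the KO, the largest being -0.94 for Fancg. Recovery of changes of that size was not simulated, so members that did not pass the test cannot be taken as unchanged. All members were named by role. Of other pathway genes, those past limma's adjusted p in the KO and the 3 highest and 3 lowest in Axin2+ cells were named, with Rspo3, Lgr5, Axin2 and Mki67 as checks, and Recql and Gdpd3 were named after their values had been seen. The members and all lists were chosen with earlier results of these data known. Motifs were counted with pandas 2.3.3.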

Additional observations from a re-analysis of the deposited data

How the results depend on the processing

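No paired analysis was possible because each KO array already is 1 pair, whose ratio is the value tested, and the Axin2 arrays are 1 replicate. The number of genes past limma's threshold in the KO, 40 as reported, was 71 with no background correction, 133 with an offset of 16, 1 with normexp fitted to all spots, 131 with Agilent's own log ratios or the series' table of values, 8 with median centring in place of loess, 0 with no filter on dim probes (1206 had p under 0.05 before adjustment), 5 with the mean over a gene's probes and 282 with a dye term over 4 arrays. The members past it, 1 as reported, were 0 with normexp fitted to all spots, with no filter and with the mean over probes (2, 8 and 4 had p under 0.05 before adjustment), and 4 with the dye term (Slx1b, Brca2, Rad54b and Fancg, adjusted p up to 0.0461). The dye-term fit takes its error from the KO pairs and the Axin2 arrays together. As the Axin2 arrays are a technical dye exchange, its p-values do not rest on variation between mice alone and may be too small. Slx1b's adjusted p ranged from 1.91e-08 to 0.9996, the last with normexp fitted to all spots, where pair 1 gave -1.50, and was 0.235 with no filter. The cause was not tested. Members past 1.5-fold lower in the KO, 4 as reported, were 2 with normexp fitted to all spots, 7 with Agilent's ratios or the series' table and 1 at 2-fold, and ranged from 4 to 10 over single pairs, 4 without pair 1 and 10 without pair 2. The KO median of -0.22 ranged from -0.43 to -0.13 over single pairs and from -0.34 with Agilent's ratios to -0.089 with normexp fitted to all spots over the other alternatives. Median centring gave -0.17 (0.12 and -0.57 in the pairs).

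In Axin2+ cells the count of 10 was 20 with Agilent's ratios or the series' table, 7 with the mean over a gene's probes, 15 with an offset of 16 and 2 at 2-fold. The median of 0.35 was 0.42 with no background correction, 0.47 with an offset of 16, 0.71 with Agilent's ratios or the series' table, 0.41 with median centring (1.101 and -0.060 on the arrays), 0.31 with the mean over probes, 0.347 with the later array design's names, an alternative added after the data had been seen, and 0.383 to 0.386 over single arrays. The 4 members called in the KO and the 10 in Axin2+ cells kept their sign in every alternative run, as did 21 of 32 uncalled members in the KO and 23 of 26 in Axin2+ cells. Fancd2 was not past 1.5-fold with the later array design's names (0.058). Signal over background limits Bard1, Palb2 and the dim probes of the other genes.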

Other observations

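Of 18 targets of p53, the factor that acts downstream of ATM and ATR, 17 were measured in each experiment. In the KO mice their median log2 ratio was 0.057 (0.11 and -0.082 in the pairs). Of the 17, 5 were higher in both pairs and 2 lower in both, against 20.3% and 24% of all genes. None passed limma's adjusted p and 1 had an unadjusted p under 0.05, against 0.26% and 4.66% of all genes. In Axin2+ cells their median was 0.029. Of the 17, 10 were higher on both arrays and 5 lower, against 41.1% and 41.7% of all genes. Past 1.5-fold lower were 2, against 6.91% of all genes. Macrophage markers were higher in both KO pairs in 7 of 10 measured, with a median of 0.24. Smooth muscle markers were so in 5 of 7, with a median of 0.24, and of all genes 20.3% were.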
